A study of Mus musculus with 6 samples.

Results

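Pou5f1 (encoding Oct4), Sox2, Klf4 and Myc are the reprogramming factors that were delivered to fibroblasts to make 4F-iPSCs. The genes were selected by name, with earlier results of these data known, and their CpGs by position: every CpG with reads from 3 kb upstream of the gene start to 1 kb past its end in mm10. That gave 363 of the 1531642 CpGs read in the series: 20 at Pou5f1, 97 at Sox2, 157 at Klf4 and 89 at Myc. No threshold on a measured value entered this choice. At least 10 reads summed over both libraries of every cell type were found at 295 of the 363.

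DNA methylation was measured by reduced representation bisulfite sequencing (RRBS), in which genomic DNA is cut with MspI at CCGG, short fragments are kept, and unmethylated cytosines are converted before sequencing. There were 2 libraries for each of 3 male mouse cell types, all grown in LIF and 2i. The labels give growth-arrested MEF feeders, removed before cells were collected, while the study's methods give gelatin-coated plates and no feeders. C-iPSCs, at passage 5 to 10, were made from OG2-MEFs with small molecules and received no factor genes. 4F-iPSCs, at passage 5 to 10, were made from OG2-MEFs by retroviral pMAXs-Oct4/Sox2/Klf4/c-Myc, and their colonies were picked for GFP. The OG2-MEFs came from 129S4/SvJaeJ, C57BL/6J and CBA/CaJ animals, and OG2 animals carry a GFP reporter under Pou5f1 regulatory sequence. mESCs were of the E14 line, at passage 20 to 30, with neither the reporter nor the retroviruses. Whether replicates were separate lines, and which sequence the retroviral inserts held, is not given in the sources used here. The edgeR, DESeq2 and quasi-binomial p-values thus measure the spread between these libraries, which may be technical. Fisher's exact p-values come from reads summed over replicates and ignore that spread. Retroviral status and cell type cannot be told apart, nor can strain, reporter and passage be told apart between iPSCs and mESCs.

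Pou5f1 is a POU-domain transcription factor, Sox2 its HMG-box partner on composite sites, Klf4 a zinc-finger factor and Myc a basic helix-loop-helix factor that promotes growth. The first 3 belong to the network that holds cells pluripotent. A retroviral copy is made from RNA and normally carries the spliced coding sequence, so it adds exon DNA but no intron or native promoter, and retroviral DNA is known to become methylated in pluripotent cells. In RRBS a further copy of a sequence adds reads where it yields a short MspI fragment. Splicing can also join exon pieces into a fragment that the native gene does not have.

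The libraries held 53694199 to 96534037 reads on CpGs, and read numbers are scaled to this total, as reads per 1000000 (RPM). A count of 3 reads, taken as the limit that a count of 0 allows, is 0.0311 to 0.0559 RPM in a library. Intervals and limits cover counting error only, since the reads carry no molecular identifiers. MspI fragments with a CpG inside were counted as read where their highest CpG averaged 0.1 RPM or more over the 6 libraries. In the 4 windows, 52 of 57 such fragments of 25 to 200 bases were read. Among shorter fragments 0 of 8 were, and among longer ones 1 of 37, a 370-base fragment of Klf4 taken up with that gene. CpGs inside CCGG sites were read as 10.5 to 30.9% methylated over the 4 windows, against 0.418 to 10.1% at the other CpGs, in the same libraries. Levels are therefore given both with and without the 90 CCGG CpGs where it matters. The identity of the cells was checked at promoters fixed in a list. The Nanog promoter, a pluripotency gene, was 0 to 9.77% methylated and that of Zfp42 5.83 to 14.6% in the 6 libraries. That of Esrrb was 26.4 to 76.3% methylated. Dppa3 had 0 to 20 reads there, 30 and 60% methylated in mESCs, 7.14 and 25% in 4F-iPSCs and 0% in the C-iPSC library that had any, and Tdgf1 had no reads. Of the fibroblast genes, the Twist2 promoter was 4.98 to 10.8% and the Col1a2 promoter 6.12 to 32.8% methylated, and the Col1a1 promoter 42.9 to 69.2% on 4 to 26 reads, while Thy1 and Col3a1 had no reads. Promoter levels do not report expression, so they limit the check.

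The member class with the largest difference in RPM was the first intron of Pou5f1. The gene lies at chr17:35506018-35510772 on the plus strand, and its window held 1 coding CpG, 2 UTR CpGs and 17 intron CpGs, with none read upstream. The intron CpGs were higher in all 4 iPSC libraries than in both mESC libraries. Most of the intron reads came from 3 MspI fragments, of which the 2 with most reads are shown from the RefSeq GRCm38 sequence (the same build as mm10) at chr17:35506583-35506644 and chr17:35507256-35507343, 5′ to 3′ on the plus strand with CpGs in capitals.
Pou5f1 intron, first fragment: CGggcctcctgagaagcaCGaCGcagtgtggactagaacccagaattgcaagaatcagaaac
Pou5f1 intron, second fragment: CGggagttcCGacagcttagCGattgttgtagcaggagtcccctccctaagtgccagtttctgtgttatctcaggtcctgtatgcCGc

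In the first fragment the median CpG was read at 30.4 and 28.2 RPM in the C-iPSC libraries, 29.1 and 25.4 RPM in the 4F-iPSC libraries and 1.67 and 3.06 RPM in the mESC libraries. In the second fragment these values were 25.9 and 19.9 RPM, 29.1 and 22.9 RPM, and 1.47 and 2.64 RPM. The iPSC and mESC libraries did not overlap in either fragment, while C- and 4F-iPSCs did. The last of the 3, at chr17:35508050-35508187, was read at 8.31 and 4.99 RPM for C-iPSCs, 8.05 and 6.16 RPM for 4F-iPSCs and 0.519 and 1.01 RPM for mESCs.

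The 17 intron CpGs summed to 228 and 185 RPM for C-iPSCs, 236 and 192 RPM for 4F-iPSCs and 13 and 23.8 RPM for mESCs. Summed reads were 12.2-fold higher in 4F-iPSCs than in mESCs (log2 fold change 3.60, SE 0.23, edgeR quasi-likelihood test with Benjamini-Hochberg adjustment, adjusted p = 1.01e-04). The 95% interval of the fold was 8.93 to 16.6. In C-iPSCs reads were 11.6-fold higher than in mESCs (log2 fold change 3.53, SE 0.23, edgeR adjusted p = 2.23e-04). Between 4F- and C-iPSCs the log2 fold change was 0.07 (SE 0.20, edgeR adjusted p = 0.974), with a fold of 0.799 to 1.39 inside the 95% interval. All p-values were adjusted over 54087 sums of reads per gene and class (coding, UTR, intron, upstream 3 kb, downstream 1 kb), of which 3.1% were called higher in 4F-iPSCs and 1.56% higher in C-iPSCs than in mESCs, and 0.329% higher in 4F- than in C-iPSCs.

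The exon CpGs of Pou5f1 did not share this difference. The CpG of the 100-base fragment at the start of the gene (chr17:35506076-35506175) was read at 0.328 and 0.212 RPM for C-iPSCs, 0.352 and 0.456 RPM for 4F-iPSCs and 0.733 and 0.335 RPM for mESCs. There 4F-iPSCs and mESCs overlapped, and both C-iPSC libraries were lowest. The mean RPM of 4F-iPSCs over that of mESCs was 0.787 at the run of CpGs at the gene start and 11.5 at the first intron run, 565 bases past the start, and that of C-iPSCs was 0.45 and 12.4. At 11 of the 16 Pou5f1 CpGs with a mean of 10 reads, every iPSC library had at least 5 times the RPM of every mESC library, with reads in both mESC libraries. Of all CpGs with that depth, 0.852% did so under this rule, which was chosen after the values were seen. The intron reads were thus also high in C-iPSCs, which received no factor genes. The part of the reporter and of strain in this difference was not tested.

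**Figure D1:**
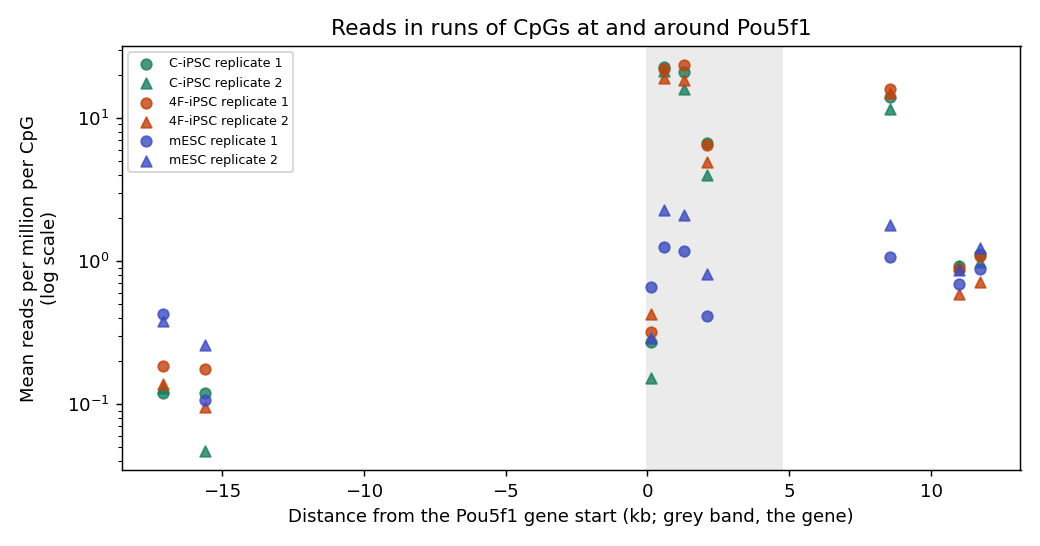
Mean RPM per CpG (log scale) in each run of neighbouring CpGs, against distance from the Pou5f1 gene start, with 1 symbol for each library and the gene as a grey band. The 3 intron runs and a run past the gene are separated between iPSC and mESC libraries, while the run at the gene start is not, and in the run at -17139 bases the iPSC libraries lie below both mESC libraries.

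The methylation of the intron reads was higher in 4F- than in C-iPSCs. Over the 17 CpGs the level was 6.26 and 7.1% for C-iPSCs, 15.3 and 27.5% for 4F-iPSCs and 4.21 and 8.23% for mESCs. Both 4F-iPSC libraries were above the other 4, and they differed from each other by more than the C-iPSC libraries did. Without CCGG CpGs the levels of all Pou5f1 CpGs were 3.83 and 2.98% for C-iPSCs, 13.2 and 22.7% for 4F-iPSCs and 0.266 and 5.66% for mESCs. At chr17:35507276, a CpG of the second fragment outside CCGG, the level was 2.36 and 2.13% for C-iPSCs, 13.6 and 25.8% for 4F-iPSCs and 0 and 4.9% for mESCs.

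Tested per CpG with a quasi-binomial regression over libraries (adjusted over 1198800 CpGs), 12 of 17 Pou5f1 CpGs were higher in 4F- than in C-iPSCs, beside 2.68% of all CpGs, and 10 higher in 4F-iPSCs than in mESCs, beside 24.8%. These 17 were the CpGs of the window with reads in all libraries, exon CpGs included, and not the 17 intron CpGs. None was called between C-iPSCs and mESCs, where 5.97% of all CpGs were higher. The CpGs of a fragment are read together and are not independent. If the native copies were read in iPSCs at the mESC depth and level, the reads above that number would be 16.1 and 29.7% methylated in the 4F-iPSC libraries and 6.24 and 7.17% in the C-iPSC libraries. Without CCGG CpGs this was 14 and 24.8% in the 4F-iPSC libraries and 3.87 and 2.93% in the C-iPSC libraries. These sums rest on an assumption that was not tested.

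In the Pou5f1 coding sequence no fragment that would arise only by splicing was read. Spliced in silico, its 1059 coding bases hold 2 complete MspI fragments. That of 590 bases is longer than those read here. That of 153 bases, of a length that was read elsewhere, joins pieces of exons that span 301 bases of the genome, and its 5 inner CpGs had 0 reads in all 6 libraries. Reads of 50 bases from each end do not cover the middle of a fragment of this length, so any CpG there could not be read.

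Klf4, at chr4:55527143-55532466 on the minus strand, was the member whose coding reads passed the test. Its 57 coding CpGs summed to 36.4 and 37.5 RPM for C-iPSCs, 54.4 and 56.1 RPM for 4F-iPSCs and 37.2 and 32.6 RPM for mESCs. Both 4F-iPSC libraries were above the other 4. Coding reads were 1.63-fold higher in 4F-iPSCs than in mESCs (log2 fold change 0.71, SE 0.13, edgeR adjusted p = 0.0164). Against C-iPSCs the log2 fold change was 0.60 (SE 0.13, edgeR adjusted p = 0.165), and between C-iPSCs and mESCs it was 0.11 (SE 0.13, adjusted p = 0.788). The call against mESCs was lost without 4F-iPSC replicate 1 (log2 fold change 0.75, edgeR adjusted p = 0.0753) or replicate 2 (0.65, adjusted p = 0.152), with the CpG with most reads in place of the sum (0.62, adjusted p = 0.814) and with a replicate block (0.71, adjusted p = 0.0807). DESeq2 called the difference from C-iPSCs (adjusted p = 0.00636).

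No class of reads outside the Klf4 coding sequence passed the test. The 27 intron CpGs summed to 26.7 and 28.2 RPM for C-iPSCs, 25.9 and 20.4 RPM for 4F-iPSCs and 24.1 and 25.7 RPM for mESCs. The log2 fold change of 4F-iPSCs over mESCs was -0.06 for introns, 0.04 for UTRs and 0.19 for the upstream 3 kb, all at an edgeR adjusted p of 1. The upstream sums of 16.7 and 16.8 RPM in the 4F-iPSC libraries were nonetheless above the 14.9 to 15.9 RPM of the other 4. Among the 4 members, Klf4 was the only gene with coding reads called higher in 4F-iPSCs than in mESCs by edgeR, where 2% of 12449 coding sums were called. No member was called for coding reads between 4F- and C-iPSCs by edgeR, beside 0.185% of all genes. None was called between C-iPSCs and mESCs, beside 1.06%. Between 4F- and C-iPSCs, 2 members, Klf4 and Sox2, had an unadjusted edgeR p under 0.05. So did 2788 of the 54087 sums of all classes, in either direction. DESeq2 called 1 member, Klf4, beside 444 of the 54087 sums called higher.

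Reads at the facing edges of Klf4 exons 2 and 3 differed between the cell types. The deposited values are counts at genomic CpGs, so whether any read spans both exons could not be seen. In the genome exon 3 ends inside a 370-base MspI fragment (chr4:55530935-55531304) and exon 2 ends inside a 109-base fragment (chr4:55531566-55531674), with an intron of 646 bases between the exons. Were the exons joined, as in spliced sequence, 49 bases of exon 3 and 45 bases of exon 2 would form a single 94-base fragment, of a length that RRBS reads. Joining exons 4 and 5 would likewise give a 192-base fragment, from chr4:55528204-55528300 and chr4:55529718-55529812, and its 7 inner CpGs had 0 reads in all 6 libraries, both 4F-iPSC libraries included. The middle of a fragment of 192 bases also lies beyond reads of 50 bases from each end. The longest fragment of up to 200 bases counted as read in the 4 windows had 180 bases. Fragments of 189 bases at Klf4 and 199 bases at Myc reached a median of 0.1 RPM in mESC replicate 2 only, at 0.186 and 0.112 RPM. The joined fragment and the genomic exon 2 fragment are shown from RefSeq GRCm38, 5′ to 3′ on the minus strand, with exon 3 in capitals in the first and exon 2 in capitals in the second.
Klf4 exon 2 to exon 3, spliced: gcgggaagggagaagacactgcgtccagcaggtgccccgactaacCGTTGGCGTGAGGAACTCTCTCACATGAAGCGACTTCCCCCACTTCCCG
Klf4 exon 2 and intron 2, genomic: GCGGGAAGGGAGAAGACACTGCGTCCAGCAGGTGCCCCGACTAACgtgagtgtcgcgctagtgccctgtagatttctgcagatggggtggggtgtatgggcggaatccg

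The 3 exon 3 CpGs of that 49-base stretch (chr4:55530952, chr4:55530976 and chr4:55530982) had reads in the 4F-iPSC libraries and in no other library. Each had 37 reads in 4F-iPSC replicate 1, 23 to 25 in replicate 2 and 0 in each of the C-iPSC and mESC libraries. The 3 lie in 1 fragment and are not independent. The mean was 0.321 ± 0.0884 RPM per CpG (SD, n = 2). Per CpG, the 60 to 62 reads of both 4F-iPSC libraries were at least 32-fold above 3 reads over the other 4 libraries. On the intron side of the same genomic fragment, 0 of 13 CpGs had a read in any library. Of the Klf4 CpGs with 10 reads or more in both 4F-iPSC libraries, 3 of 144 had no read elsewhere, and these are the 3 of 305 over all members. Of all CpGs, 0.205% met this rule, which was drawn from these values after they were seen and requires reads in 4F-iPSCs, so the count describes the CpGs and supports nothing.

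On the exon 2 side the same libraries stood apart. The 3 exon 2 CpGs were read at 0.488 and 0.436 RPM for C-iPSCs, 0.894 and 0.729 RPM for 4F-iPSCs and 0.577 and 0.546 RPM for mESCs. Both 4F-iPSC libraries were above the other 4, by 1.76 times in the mean against C-iPSCs. The 2 intron CpGs of the same genomic fragment were read at 0.492 and 0.448 RPM for C-iPSCs, 0.513 and 0.467 RPM for 4F-iPSCs and 0.599 and 0.549 RPM for mESCs, and the 4F-iPSC mean was 1.04 times the C-iPSC mean. The nearer of these CpGs (chr4:55531629) spans the exon edge and does not exist in the joined sequence. Within the 109-base fragment the read number of the 4F-iPSC libraries thus differed between the sides of the exon edge.

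**Figure D2:**
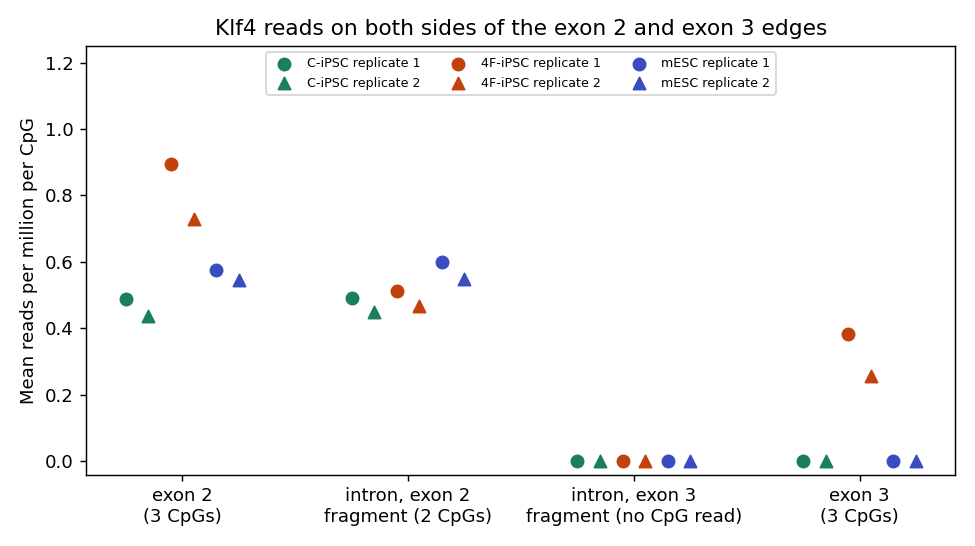
Mean RPM per CpG for each library on both sides of the facing edges of Klf4 exons 2 and 3. Exon 3 has reads in the 4F-iPSC libraries only, exon 2 is highest in them (0.894 and 0.729), and the intron CpGs beside exon 2 lie between 0.448 and 0.599 in all 6 libraries.

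A group of 15 coding CpGs at Klf4 had a different pattern. The fragment at chr4:55530711-55530837 was read at 0.448 and 0.283 RPM for C-iPSCs, 0.756 and 0.701 RPM for 4F-iPSCs and 0 and 0.0186 RPM for mESCs. Its neighbour at chr4:55530655-55530710 was read at 0.645 and 0.826 RPM, 1.31 and 1.15 RPM, and 0.226 and 0.428 RPM. Fragments outside the coding sequence at chr4:55531897-55532025 and chr4:55532746-55532772 also had a median of 0 RPM in both mESC libraries and 0.106 to 0.694 RPM in the 4 iPSC libraries. At 11 of the 140 Klf4 CpGs with a mean of 10 reads, every iPSC library had at least 5 times the RPM of every mESC library, against 2.78% of all CpGs, and 1 of the 11 had reads in both mESC libraries. Without the 15 coding CpGs, the log2 fold change of Klf4 coding reads in 4F-iPSCs over mESCs was 0.41 and the edgeR adjusted p 0.354. Over C-iPSCs, which do not lack those reads, the remaining coding reads were 1.42 times higher in the mean (log2 fold change 0.52, edgeR adjusted p = 0.472), which did not pass. The part of strain was not tested.

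Fragments were counted in the member windows only, so no share over all MspI fragments stands beside the counts by fragment. By fragment, 5 of the 7 Klf4 fragments lying whole inside a coding exon had a higher median RPM in both 4F-iPSC libraries than in the other 4, and the median ratio of 4F- to C-iPSC means was 1.7. It was 1.11 over the 9 fragments outside coding exons, 2 of which had the 4F-iPSC libraries on top. Among Klf4 fragments with a defined ratio the highest, 2.45, was in the UTR fragment at chr4:55531897-55532025 named above, outside the coding sequence. The 370-base fragment, whose inner CpGs had reads in 4F-iPSCs and none in C-iPSCs, has no defined ratio. The ratio within coding exons ran from 0.979 to 1.99. The lowest came from a 51-base fragment in exon 3 (chr4:55530202-55530252), at 1.73 and 1.79 RPM in C-iPSCs and 1.67 and 1.77 RPM in 4F-iPSCs. Fragments of 44 bases outside coding exons had ratios of 0.541 at Klf4, 0.686 at Sox2 and 0.52 at Myc, and the 44-base coding fragment of Sox2 had 0.964. The part of fragment length in these ratios was not tested.

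Sox2, at chr3:34650405-34652461 on the plus strand, has a single exon, so a spliced copy has the same inner MspI fragments as the native gene. Its 68 coding CpGs summed to 53.2 and 49.9 RPM for C-iPSCs, 76.4 and 65.3 RPM for 4F-iPSCs and 49.5 and 59.7 RPM for mESCs. The 4F-iPSC libraries were above the other 4. The log2 fold change was 0.42 over mESCs (SE 0.11, edgeR adjusted p = 0.0996) and 0.48 over C-iPSCs (SE 0.11, edgeR adjusted p = 0.236), so neither passed by edgeR. It was -0.05 between C-iPSCs and mESCs (adjusted p = 0.886). DESeq2 called the difference of 4F-iPSCs from mESCs (log2 fold change 0.43, adjusted p = 0.0486). The 29 upstream CpGs summed to 18 and 12.8 RPM for C-iPSCs, 16.8 and 14.1 RPM for 4F-iPSCs and 12.9 and 16.1 RPM for mESCs, where the groups overlapped.

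Of the 9 Sox2 fragments inside the coding sequence with at least 0.2 RPM, 4 had both 4F-iPSC libraries above the other 4, and 0 of 3 upstream fragments did. Here too the share over all MspI fragments was not computed. The median ratio of 4F- to C-iPSC means was 1.49 in coding fragments and 1.12 upstream. The coding ratio ranged from 0.873 to 1.91.

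**Figure D3:**
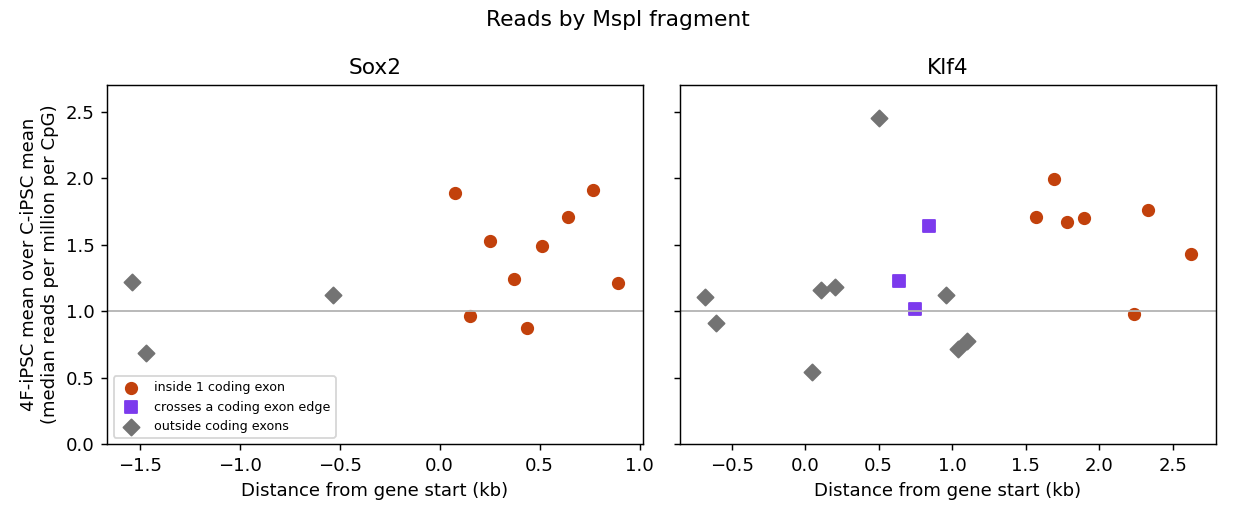
Ratio of the 4F-iPSC mean to the C-iPSC mean of the median RPM per CpG, for each MspI fragment of Sox2 and Klf4 with at least 0.2 RPM, against distance from the gene start. Most fragments inside a coding exon lie above 1 (7 of 9 for Sox2, 6 of 7 for Klf4), and fragments outside coding exons scatter from 0.541 to 1.22, except a Klf4 UTR fragment at 2.45.

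The ratio of coding reads to reads in the introns, upstream 3 kb and downstream 1 kb of the same gene does not depend on library size. For Klf4 it was 0.856 and 0.851 for C-iPSCs, 1.28 and 1.51 for 4F-iPSCs and 0.954 and 0.79 for mESCs. For Sox2 it was 2.96 and 3.9 for C-iPSCs, 4.55 and 4.64 for 4F-iPSCs and 3.85 and 3.71 for mESCs. Both 4F-iPSC libraries were above the other 4 at these 2 genes, as at 4.42% of the 11712 genes with enough reads. With 2 libraries against 2 the exact permutation test cannot give a p under 0.33. The 4F-iPSC mean was 1.6 times the mESC mean for Klf4 and 1.22 times for Sox2. No member had both 4F-iPSC libraries at least 1.5 times above both mESC libraries, as 1.06% of genes did, or above both C-iPSC libraries, as 1.14% did.

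**Figure D4:**
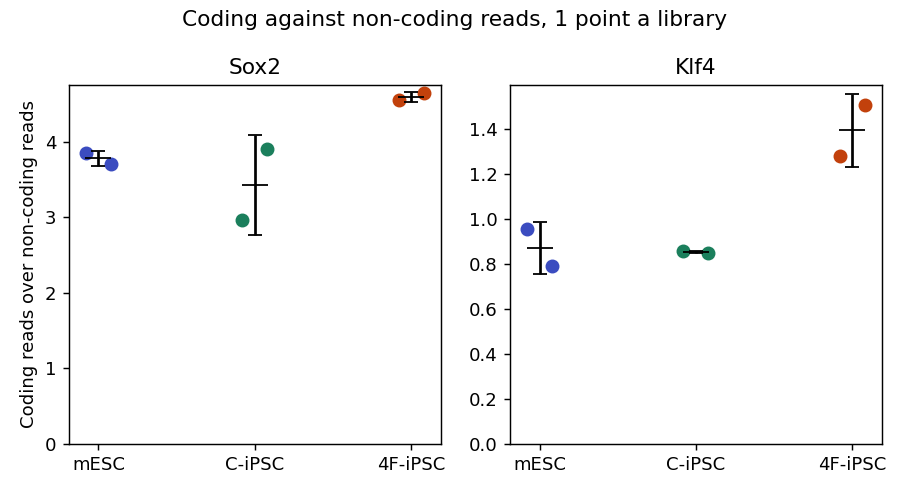
Coding reads over non-coding reads for Sox2 and Klf4, with 1 point for each library, the mean as a bar and the SD as whiskers (n = 2). The 4F-iPSC points are above those of both other cell types in each gene, with Klf4 at 1.28 and 1.51 against 0.79 to 0.954.

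Ranked by the lowest 4F-iPSC library over the highest of the other 4, Klf4 coding reads were at rank 63 and Sox2 at rank 217 of 10757 genes with a mean of 100 coding reads. There were 531 genes (4.94%) with both 4F-iPSC libraries on top. The log2 value was 0.54 for Klf4 and 0.13 for Sox2. The 5 leading genes were Hist1h3c, Hist1h3a, Hist1h2ab, Dlgap5 and Rock2. Hist1h3c, a histone H3 gene, was read at 3.02 and 3.55 RPM in 4F-iPSCs and 0 in the other 4 libraries. Dlgap5 was read at 3.93 and 3.34 RPM in 4F-iPSCs against 0.2 to 0.404 RPM. Genes with few reads outside 4F-iPSCs pass the filter on mean reads only through the 4F-iPSC libraries, so the size of their ratios follows in part from the filter.

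Myc could not be read in its main coding sequence. The gene lies at chr15:61985391-61990374 on the plus strand, and its 1320 coding bases from the ATG in exon 2 hold no complete MspI fragment. No CpG of exons 2 and 3 had a read in any library. The 2 CpGs classed as coding lie in exon 1 and belong to the longer form that starts upstream, and they summed to 2.56 and 2.08 RPM for C-iPSCs, 2.24 and 2.04 RPM for 4F-iPSCs and 1.98 and 2.48 RPM for mESCs, with overlapping groups. The 37 intron CpGs summed to 39.5 and 43.6 RPM for C-iPSCs, 31.8 and 33.1 RPM for 4F-iPSCs and 29.5 and 35.8 RPM for mESCs. The C-iPSC libraries were highest, with a log2 fold change over mESCs of 0.38 (SE 0.14, edgeR adjusted p = 0.341). The 42 upstream CpGs differed by a log2 fold change of -0.02 between 4F-iPSCs and mESCs (adjusted p = 1).

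No CpG of any member changed strongly in methylation. With at least 10 summed reads per cell type, a level difference above 0.33 (as a fraction) and a Fisher's exact p under 0.05, 0 of 295 CpGs were called in each of the 3 comparisons. Of all 1106981 CpGs compared, 14.3% were called higher in 4F-iPSCs than in mESCs, 2.9% in C-iPSCs than in mESCs and 1.35% in 4F- than in C-iPSCs. Without the limit on the difference, Fisher's exact test had a p under 0.05 with a higher level in 4F-iPSCs than in mESCs at 26 of the 295 (35.9% of all CpGs), in C-iPSCs than in mESCs at 3 (23.7%) and in 4F- than in C-iPSCs at 29 (22.2%). It had a lower level at 0, 3 and 2 of the 295 in these comparisons. By the quasi-binomial regression, 16 of 304 member CpGs were higher in 4F-iPSCs than in mESCs (24.8% of all), 0 in C-iPSCs than in mESCs (5.97%) and 17 in 4F- than in C-iPSCs (2.68%). Of these 17, Pou5f1 had 12, Klf4 3 and Sox2 2, and Myc had none. None of the 304 was called lower by the regression.

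The upstream CpGs of Sox2, Klf4 and Myc were low in methylation in every library, and Pou5f1 had none read. The level over the upstream 3 kb was 0.809 to 3.09% at Sox2, 2.41 to 6.06% at Klf4 and 2.25 to 6.19% at Myc, CCGG sites included. At these 3 genes the highest library was 4F-iPSC replicate 2, which was also highest at CCGG CpGs in general. Outside CCGG sites, the whole Myc window was 0.33 to 1.15% methylated.

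In the Sox2 coding sequence both called CpGs lay in a fragment near the 3′ end (chr3:34651272-34651325), the coding fragment with the highest 4F-iPSC level, shown from RefSeq GRCm38 on the plus strand with CpGs in capitals.
Sox2 coding: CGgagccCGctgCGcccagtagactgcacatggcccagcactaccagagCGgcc

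At chr3:34651284, inside this fragment, the level was 0 and 0.513% for C-iPSCs, 11 and 5.14% for 4F-iPSCs and 0.833 and 2.33% for mESCs. At chr3:34651321 it was 0 and 1.02% for C-iPSCs, 9.25 and 6.37% for 4F-iPSCs and 0.833 and 1.15% for mESCs. The 4F-iPSC libraries were above the other 4 at both CpGs, and the quasi-binomial adjusted p against C-iPSCs was 0.0136 and 0.0267. In 4F-iPSC replicate 1 the first of these levels rested on 228 reads, with a 95% Wilson interval of 7.54 to 15.7%. The fragment was read at 1.86 and 2.3 RPM for C-iPSCs, 2.35 and 2.66 RPM for 4F-iPSCs and 1.6 and 1.6 RPM for mESCs. The fragment at chr3:34650578-34650737 was 2.14 and 3.75% methylated in 4F-iPSCs and 0.351 to 0.694% in the other 4 libraries. Over all Sox2 CpGs outside CCGG the level was 1.5 and 1.84% in 4F-iPSCs and 0.371 to 0.522% in the other 4 libraries.

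In the Klf4 coding sequence the CpGs that were higher in 4F-iPSCs lay in exons 3 and 4. Exon 4 holds a fragment at chr4:55529813-55529868 and exon 3 one at chr4:55530202-55530252, given on the minus strand from RefSeq GRCm38 with CpGs in capitals.
Klf4 exon 4: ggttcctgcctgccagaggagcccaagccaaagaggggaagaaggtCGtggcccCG
Klf4 exon 3: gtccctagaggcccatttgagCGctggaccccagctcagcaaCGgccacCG

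The first CpG of the exon 4 fragment as printed (chr4:55529821) was 0 and 2.63% methylated for C-iPSCs, 25.3 and 23% for 4F-iPSCs and 1.72 and 0% for mESCs. It was the highest level among coding CpGs of Sox2 and Klf4 outside CCGG sites with 10 reads in every library, with 154 and 113 reads in the 4F-iPSC libraries (95% Wilson intervals 19.1 to 32.7% and 16.2 to 31.6%) and 46 to 97 in the others. The quasi-binomial adjusted p was 7.47e-04 against C-iPSCs and 5.75e-05 against mESCs. In the exon 3 fragment, chr4:55530230 was 0.637 and 1.32% methylated for C-iPSCs, 10.5 and 10.2% for 4F-iPSCs and 0 and 1.37% for mESCs (adjusted p = 0.0287 against C-iPSCs). The other CpG of this fragment outside CCGG, chr4:55530209, was 0.629 and 0.658% methylated for C-iPSCs, 7.5 and 10.2% for 4F-iPSCs and 5.41 and 5.56% for mESCs, and passed against C-iPSCs (adjusted p = 0.0381) but not against mESCs (adjusted p = 0.677). Its CCGG CpG, chr4:55530202, was 13.1 and 14.3% methylated for C-iPSCs, 28.2 and 22% for 4F-iPSCs and 7.69 and 11.1% for mESCs. That CpG passed against mESCs (quasi-binomial adjusted p = 0.0363) but not against C-iPSCs (adjusted p = 0.452). Farther upstream in exon 3, chr4:55530884 was 1.02 and 0.806% methylated for C-iPSCs, 9.55 and 6.81% for 4F-iPSCs and 0.794 and 1.64% for mESCs, which did not pass against C-iPSCs (adjusted p = 0.144) but passed against mESCs (adjusted p = 0.0261).

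At the 3 exon 3 CpGs with reads in 4F-iPSCs only, few reads were methylated. The highest level was at chr4:55530976, with 2 of 37 reads (5.41%, 95% Wilson interval 1.5 to 17.7%) and 1 of 25 reads (4%, 0.71 to 19.5%) methylated in the 4F-iPSC libraries. At chr4:55530982 it was 0 of 37 and 0 of 25 reads. The 3 CpGs of exon 2 across the edge were 1.93 and 2.43% methylated in the 4F-iPSC libraries and 0% in the other 4. Of the 6 intervals at the 3 CpGs, that of 4F-iPSC replicate 2 at chr4:55530976 overlapped the interval of the exon 4 CpG in the same library, and the upper limits of the other 5, 9.41 to 17.7%, lay below the exon 4 interval of their own library.

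**Figure D5:**
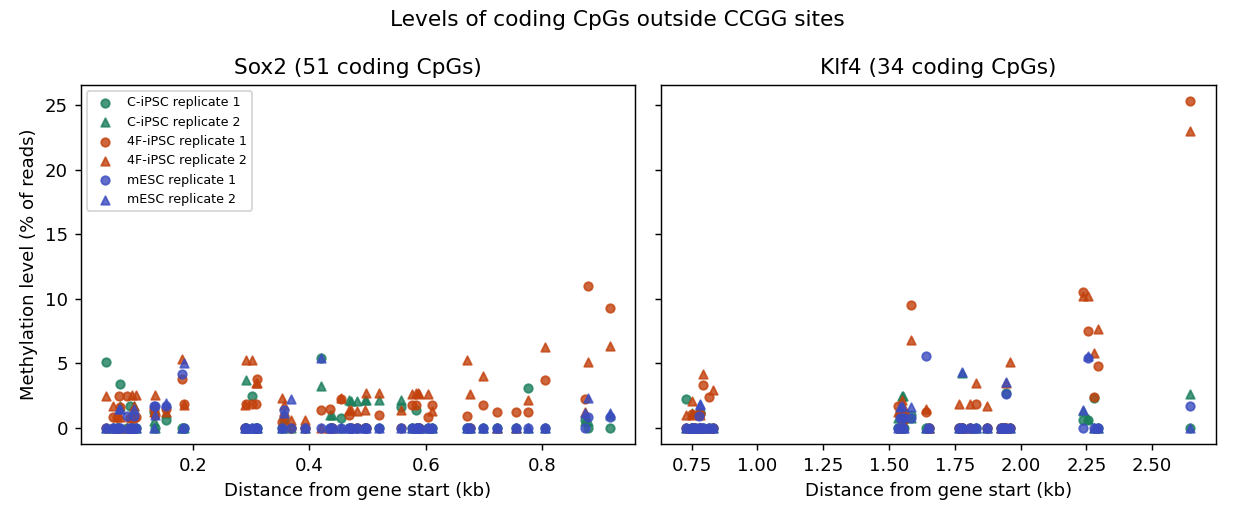
Methylation level of each coding CpG outside CCGG sites with 10 reads or more in all 6 libraries, against distance from the gene start, for 51 CpGs of Sox2 and 34 of Klf4. Most CpGs lie near 0 in all libraries, and the 4F-iPSC symbols stand highest at a few CpGs of each gene, up to 25.3% at Klf4 exon 4 and 11% at Sox2.

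Over whole coding sequences, the Klf4 level was 2.64 and 3.49% for C-iPSCs, 5.1 and 6.39% for 4F-iPSCs and 2.22 and 2.46% for mESCs, and the Sox2 level was 1.91 and 2.48%, 3.05 and 4.61%, and 2.02 and 2.25%. The 4F-iPSC libraries were above the other 4 in both genes. If native copies were read in 4F-iPSCs at the mESC level, scaled by the non-coding reads of the gene, there were 1.47 and 1.74 times the expected reads at Klf4, and the reads above expectation would be 11 and 11.9% methylated. Without CCGG CpGs this was 7.36 and 5.96%. At Sox2, with CCGG CpGs included, there were 1.21 and 1.23 times the expected reads, and the level of the reads above expectation would be 7.56 and 15.4%. The same sum in C-iPSC replicate 2, which received no factor genes, gave 1.03 times the expected reads at 13%. The estimate depends on a small difference in reads, which at Sox2 did not pass the edgeR test.

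The relatives of the factors served as a comparison without delivered copies. Of 23 POU, Sox, Klf and Myc family genes with enough coding reads, 2 (Sox7 and Sox11) had more coding reads in 4F-iPSCs than in mESCs (2% of all genes), 1 (Sox11) in C-iPSCs than in mESCs (1.06%) and 0 in 4F- than in C-iPSCs (0.185%). Their median log2 fold change was -0.02, 0.07 and 0.01 in these comparisons, beside 0.00, -0.02 and 0.03 over all genes. For Sox11, a neural Sox factor, the value was 1.08 (SE 0.14, edgeR adjusted p = 0.00204) in 4F-iPSCs and 0.68 (SE 0.13, adjusted p = 0.0402) in C-iPSCs, both over mESCs. These comparisons share the mESC libraries. For Sox7 the value in 4F-iPSCs was 0.95 (SE 0.21, adjusted p = 0.0365). Over all classes, 5 of 85 were higher in 4F-iPSCs (3.1% of all) and 3 in C-iPSCs (1.56%) than in mESCs. Those outside coding were the upstream reads of Pou3f1 (5.69 and 6.43 on the log2 scale, edgeR adjusted p = 0.00198 and 0.00184), the intron reads of Sox7 (0.95 and 1.15, adjusted p = 0.0387 and 0.026) and, in 4F-iPSCs, the upstream reads of Pou2f2 (2.14, adjusted p = 0.0301). Between 4F- and C-iPSCs the coding reads of the relatives ran from -0.51 to 0.41 and those of 9 other pluripotency factors from -0.16 to 1.08, beside 0.60 for Klf4 and 0.48 for Sox2, and none of these was called by edgeR.

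The list of other pluripotency factors held 11 genes, 9 of them with enough coding reads. Lin28a, an RNA-binding factor that blocks let-7, had more coding reads in 4F-iPSCs (log2 fold change 5.57, SE 0.53, edgeR adjusted p = 5.59e-04) and in C-iPSCs (4.80, SE 0.53, adjusted p = 0.00192) than in mESCs. Sall4, a zinc-finger factor, had more upstream reads in both iPSC types (7.80 and 7.21 on the log2 scale, adjusted p = 1.76e-04 and 5.74e-04). Tdgf1, a co-receptor for Nodal, had more intron reads in 4F-iPSCs than in mESCs (5.38, adjusted p = 0.0105) and than in C-iPSCs (10.41, adjusted p = 0.0192). The rest passed in no class. Fitted values of features at or near 0 in a group depend on the fit's prior count.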

How the data were processed

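RRBS libraries of 2 C-iPSC, 2 4F-iPSC and 2 mESC samples were analysed from the deposited tables, which give per CpG the counts of all reads and of methylated reads, the methylation level as a fraction, and both strands. The authors aligned 50-base paired reads to mm10 with BSMAP (version 2.90 in the submitters' processing notes, up to 8% mismatches) and called levels with MOABS. Members and lists were chosen with earlier results of these data known.

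CpGs were assigned to protein-coding genes of GENCODE vM21. Reads per gene and class (mean of 10 or more per library) were tested with edgeR 4.0.16 (TMM, R 4.3.3) over all 6 libraries, with DESeq2 1.42.0 as an alternative. Summed reads per CpG were tested with Fisher's exact test, and with a quasi-binomial regression using limma 3.58.1 dispersions where all libraries had reads. The edgeR fit, Fisher's exact test and the quasi-binomial regression were tested on simulated data. MspI fragments were cut in silico in GRCm38. The named genes were the 4 members, called members of 2 lists and the 5 genes ranked highest by the lowest 4F-iPSC over the highest other library. Also named were the genes of the promoter list, and Tcf19 and Cchcr1 near Pou5f1. Depth is in the report.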

Additional observations from a re-analysis of the deposited data

Results flagged for a closer look

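Outside the window of Pou5f1, the CpGs at chr17:35514504-35514598 in Tcf19 also had more reads in iPSCs than in mESCs. They appear in the plot of reads around Pou5f1 but lie outside the members, and no test result is given for them. Their mean was 13.9 and 11.6 RPM for C-iPSCs, 16 and 14.9 RPM for 4F-iPSCs and 1.07 and 1.78 RPM for mESCs, so that the lowest iPSC library had 6.52 times the reads of the highest mESC library. The run lies 8486 to 8579 bases past the Pou5f1 gene start. Its methylation level was 20.4 and 30.4% for C-iPSCs, 36.3 and 39.9% for 4F-iPSCs and 17.1 and 23.2% for mESCs, and 4F-iPSCs were again above the other 4 libraries. The next run, at chr17:35516875-35517111 in Cchcr1, was read at 0.584 to 0.924 RPM in all 6 libraries, and the runs at -17139 and -15605 bases from the gene start were not higher in iPSCs. Between these upstream runs and the gene start no CpG had a mean of 10 reads, so the upstream side could not be read. The part of the reporter was not tested.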

How the results depend on the processing

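Coding reads were called higher in 4F-iPSCs than in mESCs at 1 member, Klf4, by edgeR over all libraries. The number was 2 with DESeq2, 0 with the CpG with most reads in place of the sum, and 0 to 2 when each replicate was left out in turn, with 0 without 4F-iPSC replicate 1 or 2 and 2 without mESC replicate 2. Against C-iPSCs it was 0, 1 with DESeq2 and 0 to 1 with a replicate left out, 1 being reached without either mESC replicate. Same-numbered libraries deviated with correlations of -0.39 (4F-iPSC and mESC), -0.19 (C-iPSC and mESC) and 0.45 (4F- and C-iPSC), of which only the last is positive. With 2 libraries a group, no source says that the numbers mark a shared origin. With a replicate block 0 members were called against mESCs, and with the mESC numbers crossed, an alternative chosen after seeing the data, 2 against mESCs and 1 against C-iPSCs. Without the 15 Klf4 CpGs low in mESCs, also chosen afterwards, 0 were called. Small log2 differences changed sign. For C-iPSCs over mESCs, Klf4 coding reads were at -0.19 by the CpG with most reads and -0.11 without the 15 CpGs, and Sox2 coding reads at 0.36 by the CpG with most reads and -0.14 to 0.08 with a replicate left out. Pou5f1 intron reads of 4F- over C-iPSCs were at -0.06 by the CpG with most reads and -0.06 to 0.19 with a replicate left out, and Myc intron reads of 4F-iPSCs over mESCs at -0.05 and -0.05 to 0.18. The Sox2 ratio of coding to non-coding reads in 4F-iPSCs over mESCs was 1.17 with promoter CpGs as non-coding. Member CpGs strongly higher in 4F-iPSCs than in mESCs numbered 0 to 1 with a replicate left out, 1 being reached without 4F-iPSC replicate 1 or mESC replicate 1. The Klf4 coding level of 4F-iPSCs minus mESCs was 2.12 percentage points without CCGG CpGs, against 3.41. The level of Klf4 reads above expectation was 9.99% with C-iPSCs as the expectation, 6.66% without CCGG CpGs and 10 to 13.6% with a replicate left out, against 11.5%. The cause of these shifts was not tested. Of 291 alternatives over 31 results, 248 kept the direction and side of the threshold or stayed within the replicate spread. With introns alone as non-coding, Sox2, which has none, gave no ratio. Over all genes and classes, higher calls against mESCs numbered 1677 for 4F-iPSCs (903 with the replicate block, 829 to 2567 with a replicate left out) and 842 for C-iPSCs (272 with the block, 1359 with DESeq2, 213 to 4829 with a replicate left out, the most without mESC replicate 2), and 178 between 4F- and C-iPSCs (2 with the block, 444 with DESeq2, 6 to 477).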
